A study of Mus musculus with 30 samples.

Results

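The mitochondrial respiratory chain genes are the nuclear genes for the subunits of complexes I to V of oxidative phosphorylation. Array rows were taken whose symbol starts with Nduf followed by a, b, c, s or v, with Uqcr, with Cox followed by 4 to 8 or with Atp5, or is Sdha, Sdhb, Sdhc or Sdhd. This rule matched 77 of the 18097 gene symbols of the array, with 95 probes. Of these, 72 were detected (p under 0.05) through a probe on 3 or more arrays and were tested among 11177 genes, each through its brightest probe. Cox7b2, Ndufs1, Uqcrq, Cox8b and Atp5k were detected on 0 of the 30 arrays and were not tested. The 72 members comprised 33 genes of complex I, 3 of complex II, 5 of complex III, 14 of complex IV and 14 of complex V. The symbol rule also took in 3 genes that are not subunits, namely Ndufaf1, an assembly factor of complex I, Atp5sl and Cox4nb, a gene neighbouring Cox4i1. Sdha, Atp5g1, Cox8a and Ndufa4l2 were not analysed here, and none of 26 mitochondrially encoded genes and transcripts looked for was on the array.

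The samples were 30 Illumina Mouse WG-8 v2 arrays of 5 rescue clones of the mouse embryonic stem cell (ESC) line Ainv15, which expresses a reverse tetracycline transactivator. In each clone named after a gene (Bub1b_R, Chek1_R, Ppm1g_R, Ppp2r1b_R), an shRNA depletes the endogenous mRNA of that gene and doxycycline (Dox) turns on an shRNA-immune copy, while Ctrl_R is the control clone. Each clone was sampled with Dox at 1 µg/ml and after 5 days without it, with 3 arrays per condition. The comparisons ask how the expression program of ESCs changes when these phosphorylation regulators are lost. All clones had been derived and kept on primary mouse embryonic fibroblasts with LIF and Dox, and were grown for the arrays, according to the study's methods, without feeder cells. The lines are clones selected by GFP sorting, and no source used here says which of several clones per gene the arrays hold or whether the 3 arrays came from separate cultures. The p-values therefore measure only the spread between these arrays, which may be technical.

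The chain passes electrons from NADH (complex I) and succinate (complex II) through coenzyme Q, complex III and cytochrome c to oxygen at complex IV, and complex V uses the resulting proton gradient to make ATP. Several complex IV subunits exist as a form found in most tissues and a form restricted to heart and skeletal muscle (Cox6a2, Cox7a1), testis (Cox6b2, Cox8c) or lung (Cox4i2). Doxycycline itself inhibits translation in mitochondria, so the change in Ctrl_R on Dox withdrawal is a reference for the changes below.

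The probe of the targeted gene did not follow Dox in all clones. Ppm1g fell by 1.25 on the log2 scale on Dox withdrawal in Ppm1g_R (limma adjusted p = 4.5e-09), and Bub1b and Ppp2r1b had changes of −0.14 and 0.20 in their own clones (limma adjusted p = 0.217 and 0.365). Chek1 was at least 1.35-fold higher without Dox in the arrays labelled Chek1_R (limma adjusted p = 0.00115) and was below detection on all 3 arrays with Dox, which goes against the Dox labels of these arrays if the probe detects the rescue copy. The 6 markers of primitive streak and mesoderm on the same arrays went with the labels: all 6 rose on withdrawal, T by 4.44, and their median difference from Ctrl_R was 0.05 with Dox. Against Ctrl_R, Chek1 was called lower in Chek1_R both with Dox, where it was below detection, and without (−1.07), and Ppp2r1b in Ppp2r1b_R had −0.61 with Dox and −0.25 without, the latter not called (limma adjusted p = 0.158). Bub1b in Bub1b_R had −0.70 and −0.67, and Ppm1g in Ppm1g_R −0.33 and −1.74. Whether these probes also detect the rescue copies is not given in the sources used here; by the study's methods the copies of Bub1b and Chek1 lack the sequence that the shRNA targets, and a probe in removed sequence would check nothing. On the 12 Bub1b_R and Ctrl_R arrays detected raw signals began at 12.9 to 20.9, and on the other 18 arrays at 27.8 to 58.1, so the arrays fell into a pair of sets by signal level. No label names these sets. Comparisons of Chek1_R, Ppm1g_R and Ppp2r1b_R with Ctrl_R lie across the sets, and set and clone cannot be told apart. The 6 Ctrl_R arrays were also registered separately from, and earlier than, those of the 4 rescue clones, so that any comparison with Ctrl_R, including that of Bub1b_R, may differ in more than the clone. Changes on Dox withdrawal lie within 1 clone.

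The upstream sequences of 4 members on which the results below turn are shown: Cox7a1, the member that fell in every rescue clone, Cox6b2, whose change by its brightest probe differed most from that of Ctrl_R in Bub1b_R, Cox6a1, the widely expressed partner of Cox6a2, and Sdhb, which fell in 3 clones. Each is the 250 bases before the transcription start in RefSeq on build GRCm38.p6, written 5′ to 3′ on the gene's strand, with matches to the nuclear respiratory factor 1 (NRF1) core GCATGCGC or the ETS and GABP site CCGGAAG, on either strand, in capitals. The capitals in Cox6a1 mark NRF1 core matches on both strands that overlap each other, and an ETS and GABP match on the minus strand, read here as its complement. The capitals in Sdhb mark 1 NRF1 core match that ends 47 bases before the start. The windows of Cox7a1 and Cox6b2 held no match to either motif.
Cox7a1, chr7:30183921-30184170, plus strand: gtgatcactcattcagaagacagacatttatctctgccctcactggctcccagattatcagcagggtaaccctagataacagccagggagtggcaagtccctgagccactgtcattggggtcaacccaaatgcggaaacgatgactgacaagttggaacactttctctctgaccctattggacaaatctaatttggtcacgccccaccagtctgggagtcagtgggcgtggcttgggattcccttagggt
Cox6b2, chr7:4753095-4753344, minus strand: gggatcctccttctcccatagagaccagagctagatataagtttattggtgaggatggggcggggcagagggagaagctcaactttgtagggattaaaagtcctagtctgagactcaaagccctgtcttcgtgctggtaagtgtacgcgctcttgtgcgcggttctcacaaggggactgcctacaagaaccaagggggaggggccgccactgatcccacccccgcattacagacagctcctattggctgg
Cox6a1, chr5:115348959-115349208, minus strand: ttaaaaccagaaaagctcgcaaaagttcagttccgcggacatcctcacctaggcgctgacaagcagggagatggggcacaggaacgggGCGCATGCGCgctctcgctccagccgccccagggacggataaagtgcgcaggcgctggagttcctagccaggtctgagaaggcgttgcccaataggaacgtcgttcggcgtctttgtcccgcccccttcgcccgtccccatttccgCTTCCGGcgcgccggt
Sdhb, chr4:140961021-140961270, plus strand: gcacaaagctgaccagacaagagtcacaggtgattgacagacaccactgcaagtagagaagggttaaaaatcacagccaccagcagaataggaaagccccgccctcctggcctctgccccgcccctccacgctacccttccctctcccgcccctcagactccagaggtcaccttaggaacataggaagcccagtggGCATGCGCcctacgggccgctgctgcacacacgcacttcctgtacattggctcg

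Promoters were listed for 60 of the 72 members. The NRF1 core stood in 6 of these 60 genes (10%), against 2.56% of 27025 genes with a listed promoter, and the ETS and GABP site in 13 (21.7%), against 7.83%. NRF1 and GABP are the classical activators of respiratory chain genes. The ERR motif AAGGTCA, bound by estrogen-related receptors, stood in 4 (6.67%, against 4.7%) and the YY1 site AAGATGGCG in 2 (3.33%, against 0.71%). The 27025 genes include genes that were not tested here, so these shares do not compare the members with other detected genes. These are matches of letters on either strand and not tested binding sites.

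On Dox withdrawal, calls were mostly small falls in the 4 rescue clones, which taken over these clones lay in all 5 complexes, and no member was called lower in Ctrl_R. Of the 72 members, 14 fell and 0 rose in Bub1b_R (limma, adjusted p under 0.05), where 14.2% of all tested genes fell and 12.6% rose. In the arrays labelled Chek1_R 13 members fell and 3 rose, against 18.2% and 15.3% of all genes. The split was 14 and 0 in Ppm1g_R (12.7% of all genes fell and 12.7% rose) and 7 and 0 in Ppp2r1b_R (14% and 12.9%). In Ctrl_R 0 fell and 2 rose, against 4.04% and 4.34% of all genes, with 10 members at an unadjusted p under 0.05, of which 9 were higher. The shares of members that fell in the rescue clones, 19.4%, 18.1%, 19.4% and 9.72%, were thus near those of all genes, and the count of falls gives nothing particular to these genes. Of the calls, 7, 8, 5, 4 and 0 held in the 5 clones, in the same order, when each of the 30 arrays was left out in turn. Cox6a2, among the 14 in Bub1b_R, was detected on none of the 6 arrays of that clone and has no measured change.

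The sizes were mostly below 1.5-fold. With that limit added, 2 members changed in Bub1b_R (6.24% of all genes), 3 in the arrays labelled Chek1_R (9.92%), 0 in Ppm1g_R (4.63%, with 27 members at an unadjusted p under 0.05 with no limit of size), 0 in Ppp2r1b_R (4.97%, with 18) and 1 in Ctrl_R (1.15%). The median change of the 72 members was −0.11 in Bub1b_R, −0.02 in Chek1_R, −0.10 in Ppm1g_R, −0.10 in Ppp2r1b_R and 0.04 in Ctrl_R, beside medians between −0.02 and −0.01 over all tested genes. Of the members, 56, 39, 58, 53 and 22 lay below 0 in these 5 clones. In the arrays labelled Chek1_R the median became 0.06 and the split 2 falls and 5 rises when scaling to one median replaced quantiles. The median of all genes there became 0.05, so that no direction of the members as a whole can be given in Chek1_R. The same scaling gave a median of −0.06 with 6 calls in Bub1b_R and −0.23 with 23 calls in Ppm1g_R. The medians of all genes were then 0.04 and −0.07. Members varied little between replicate arrays, with a median SD of 0.0796 against 0.131 for all genes tested. They were also brighter, with a median level of 11.80 against 7.96 on the log2 scale. The part of spread and level in the calls of small changes was not tested.

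**Figure D1:**
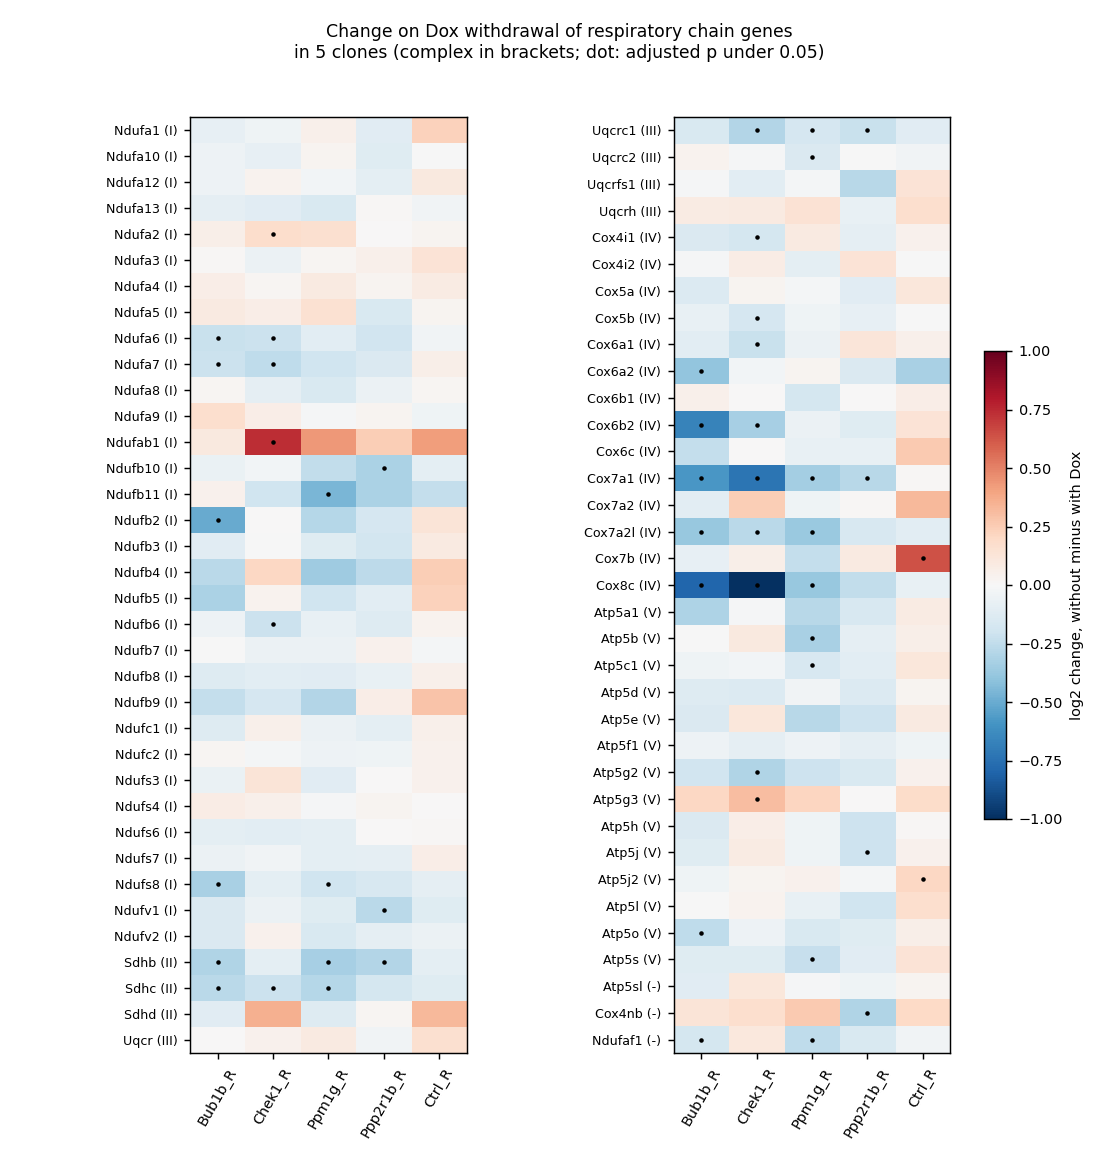
Log2 change on Dox withdrawal (without minus with Dox, colour) of 71 of the 72 respiratory chain genes (rows, complex in brackets) in the 5 clones (columns, mean of 3 arrays against mean of 3), with a dot where the adjusted p was under 0.05. Cox7a1 carries a dot in 4 rescue clones, no member has a fall with a dot in Ctrl_R, and the largest falls in Bub1b_R and Chek1_R lie among complex IV genes. In Chek1_R the members' median became 0.06 when arrays were scaled to one median, while that of all genes became 0.05.

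In the mean of the 4 rescue clones 29 members (40.3%) fell and 3 (4.17%) rose on Dox withdrawal, against 26.1% and 22.8% of all genes, and 1 member passed 1.5-fold, Cox8c (4.04% of all genes). Cox8c was below detection on all 6 arrays of Ppp2r1b_R and on all 3 of Chek1_R without Dox, so its fold is not a measured size. The median over the members was −0.08, beside −0.02 over all genes. The members that rose were Atp5g3, which encodes the c-ring subunit of complex V (0.19, beside 0.19 in Ctrl_R), Ndufa2 (0.10, beside 0.03 in Ctrl_R) and Ndufab1, the mitochondrial acyl carrier protein. Ndufab1 was detected on 0 of 6 arrays of Bub1b_R, on 0 of 3 of Chek1_R and 1 of 3 of Ppp2r1b_R with Dox, and on 1 of 6 of Ctrl_R, so its mean change of 0.38 is not a measured size, and its fitted change in Ctrl_R was 0.42. The falls comprised 14 genes of complex I, 2 of complex II, 1 of complex III, 6 of complex IV, 5 of complex V and Ndufaf1. Counted over clones, 1 member fell in all 4 clones, 5 in 3 clones, 6 in 2 clones and 17 in 1 clone, and 43 fell in none. Changes of 25 members lay below 0 in all 4 rescue clones. The shares of all tested genes for these counts over clones were not taken, so the counts give nothing particular to these genes.

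Complex I, the NADH dehydrogenase, had 5, 3, 3 and 2 of its 33 members falling in Bub1b_R, Chek1_R, Ppm1g_R and Ppp2r1b_R. Ndufs8, an iron-sulphur subunit, was at 11.79, 11.77 and 11.78 on the log2 scale on the arrays of Bub1b_R with Dox and at 11.49, 11.43 and 11.44 without. It was at 11.49, 11.46 and 11.37 with Dox and 11.22, 11.26 and 11.24 without in Ppm1g_R. The arrays with and without Dox did not overlap in either clone, and the falls were 0.33 (SE 0.06, limma adjusted p = 0.000329) and 0.20 (SE 0.06, limma adjusted p = 0.021). Ndufs8 had changes of −0.10 in Chek1_R, −0.16 in Ppp2r1b_R and −0.09 in Ctrl_R, none of which passed the test. The call in Ppm1g_R ended without any 1 of 4 of its arrays, with falls of 0.18 to 0.20.

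Ndufv1, the subunit that binds NADH, fell in Ppp2r1b_R by 0.27 (SE 0.06, limma adjusted p = 0.00156), from 12.55, 12.52 and 12.55 with Dox to 12.37, 12.27 and 12.17 without. Its changes were −0.14, −0.06 and −0.12 in Bub1b_R, Chek1_R and Ppm1g_R and −0.12 in Ctrl_R. The accessory subunits Ndufa6 and Ndufa7 fell in Bub1b_R and in the arrays labelled Chek1_R, Ndufa6 by 0.23 and 0.22 (−0.04 in Ctrl_R) and Ndufa7 by 0.21 and 0.25 (0.06 in Ctrl_R). These calls of Ndufa6 and Ndufa7 each ended without 1 or more of the arrays of the clone. The rule for named genes also took 3 membrane arm subunits: Ndufb11, which fell by 0.46 in Ppm1g_R (limma adjusted p = 0.049), Ndufb10, which fell by 0.31 in Ppp2r1b_R (limma adjusted p = 0.0389), and Ndufb2, which fell by 0.24 in the mean of the 4 clones. Their changes in Ctrl_R were −0.24, −0.09 and 0.13, none called. The calls of all 3 ended without 1 or more of the arrays.

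Ndufab1 and Ndufa2 rose in the arrays labelled Chek1_R. Ndufab1 was below detection on the 3 arrays with Dox (5.32, 5.38 and 5.47) and detected on the 3 without (5.75, 6.53 and 6.10), which made it at least 1.46-fold higher without Dox (limma adjusted p = 0.0169), a call that ended without replicate 1 with Dox or replicate 2 without. Ndufa2 rose by 0.18 (limma adjusted p = 0.0463), a call that ended without 1 or more of the arrays. The changes of Ndufa2 in the other 3 rescue clones were 0.06, 0.16 and 0.00, and 0.03 in Ctrl_R. Ndufa4, counted by its symbol among complex I genes and known as a subunit of complex IV, lay between 13.60 and 13.99 on all 30 arrays and its changes were between 0.02 and 0.09 in all 5 clones.

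Complex II, which links the tricarboxylic acid (TCA) cycle to the chain, had 2 of its 3 measured subunits falling in the mean of the rescue clones. Sdhb, the iron-sulphur subunit, was at 10.81, 10.90 and 10.80 with Dox and at 10.56, 10.64 and 10.42 without in Bub1b_R. In Ppm1g_R it was at 10.95, 10.82 and 10.93 and at 10.67, 10.54 and 10.49, and in Ppp2r1b_R at 10.75, 10.76 and 10.66 and at 10.45, 10.47 and 10.37. The arrays without Dox lay below all arrays with Dox in each of these 3 clones. The falls of Sdhb were 0.30, 0.33 and 0.30 (SE 0.06 each, limma adjusted p = 0.000884, 0.000342 and 0.00113), beside −0.10 in Chek1_R and −0.10 in Ctrl_R, which did not pass.

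Sdhb has 3 probes. The second fell in the same 3 clones, by 0.27, 0.25 and 0.34, while the third, at −0.16, 0.15 and 0.07, did not pass the test in any of them. Sdhc, which anchors the enzyme in the membrane, fell by 0.27 in Bub1b_R, 0.21 in Chek1_R and 0.29 in Ppm1g_R (SE 0.07 each). Its call in Chek1_R ended without 1 or more of the arrays, and its changes were −0.18 in Ppp2r1b_R and −0.12 in Ctrl_R. Sdhd, the other membrane anchor, passed the test in no clone, with changes of −0.11, 0.36, −0.13 and 0.02 in the rescue clones and 0.32 in Ctrl_R. The fall of Sdhb or of Sdhc was not shown to differ from the change in Ctrl_R: the differences in the 4 rescue clones were between −0.23 and −0.00 for Sdhb and between −0.16 and −0.05 for Sdhc, with limma adjusted p of 0.088 or more.

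Complex III had Uqcrc1, a core protein, falling in 3 clones. It was at 11.83, 11.87 and 11.68 with Dox and 11.57, 11.47 and 11.46 without in the arrays labelled Chek1_R, a fall of 0.29 (SE 0.06, limma adjusted p = 0.000365). The falls in Ppm1g_R and Ppp2r1b_R were 0.17, whose call ended without any 1 of 4 arrays of that clone, and 0.22, while −0.15 in Bub1b_R and −0.11 in Ctrl_R did not pass. Uqcrc2, the other core protein, fell in Ppm1g_R by 0.15 (limma adjusted p = 0.0399), a call that ended without any 1 of its 6 arrays, and had changes of 0.03, −0.01 and −0.00 in the other 3 rescue clones. The probe of Uqcrfs1, the Rieske iron-sulphur protein, was detected on 10 of 30 arrays and gave changes between −0.28 and 0.13, none called.

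Complex IV, cytochrome c oxidase, held the largest falls in the mean of the 4 rescue clones, those of Cox8c, Cox7a1, Cox7a2l and Cox6b2, of which 3 are tissue-restricted isoforms. Cox7a1, the heart and muscle form of subunit 7a, fell in all 4 rescue clones. In Bub1b_R it was at 10.51, 10.53 and 10.52 with Dox and at 10.01, 9.97 and 9.86 without, and in the arrays labelled Chek1_R at 10.80, 10.88 and 10.81 and at 10.15, 10.06 and 10.09. In Ppm1g_R it was at 10.49, 10.37 and 10.46 and at 10.11, 10.11 and 10.09, and in Ppp2r1b_R at 10.83, 10.88 and 10.73 and at 10.49, 10.58 and 10.54. In Ctrl_R it was at 11.84, 11.71 and 11.80 with Dox and at 11.81, 11.85 and 11.73 without. Every array without Dox lay below every array with Dox in the rescue clones, the Ctrl_R arrays overlapped, and all 6 Ctrl_R arrays lay above all 24 others.

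The falls of Cox7a1 were 0.58 (SE 0.06, limma adjusted p = 2.91e-08) in Bub1b_R, 0.73 (2.21e-10) in Chek1_R, 0.34 (7.75e-05) in Ppm1g_R and 0.28 (0.000598) in Ppp2r1b_R, beside 0.01 (0.928) in Ctrl_R. The fold decreases were 1.49, 1.66, 1.26 and 1.21. The difference from Ctrl_R was itself past the test in each clone, at −0.59, −0.74, −0.35 and −0.29, and the change differed among the 5 clones by the F-test (limma adjusted p = 1.21e-06). The calls in Bub1b_R, Chek1_R and Ppm1g_R ended under no alternative but a limit of size. The call in Ppp2r1b_R ended when only its own 6 arrays were fitted (limma adjusted p = 0.0869), and the difference from Ctrl_R there lost its call without any 1 of 4 arrays, namely Ppp2r1b_R with Dox replicate 2 or without Dox replicate 1, and Ctrl_R with or without Dox replicate 2 (−0.27 to −0.25).

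Cox8c, the testis form of subunit 8, lay near the limit of detection, so that its falls are not exact sizes. In Bub1b_R it was at 6.06, 6.10 and 6.09 with Dox and at 5.54, 5.31 and 5.02 without, where 1 of 3 arrays detected it, a fall of 0.80 (SE 0.11, limma adjusted p = 1.12e-05). In the arrays labelled Chek1_R it was at 6.14, 6.06 and 6.50 with Dox and below detection on all 3 arrays without, at least 1.59-fold lower (limma adjusted p = 1.74e-07). In Ppm1g_R it fell by 0.38 (limma adjusted p = 0.0182), a call that ended without background correction or without any 1 of 4 arrays of the clone, and 1 of 3 arrays without Dox detected it. Ppp2r1b_R had it detected on 0 of 6 arrays. In Ctrl_R it was at 7.26, 7.02 and 7.09 with Dox and 7.15, 7.09 and 6.92 without, a change of −0.07.

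Cox6b2, the testis form of subunit 6b, fell in 2 clones. It was at 10.15, 10.25 and 10.19 with Dox and 9.64, 9.42 and 9.52 without in Bub1b_R, a fall of 0.67 (SE 0.07, limma adjusted p = 1.33e-07), and fell by 0.33 in the arrays labelled Chek1_R (limma adjusted p = 0.00073). Changes of −0.06, −0.12 and 0.14 were measured in Ppm1g_R, Ppp2r1b_R and Ctrl_R. A second Cox6b2 probe gave −0.25 in Bub1b_R and −0.09 in Chek1_R, neither called, and −0.38 in Ctrl_R, so the probes disagreed. Cox7a2l, a protein related to subunit 7a that joins complexes III and IV into supercomplexes, fell by 0.38 in Bub1b_R, 0.27 in Chek1_R and 0.37 in Ppm1g_R (SE 0.07 each), with changes of −0.16 in Ppp2r1b_R and −0.10 in Ctrl_R that did not pass. Its difference from Ctrl_R was called in no clone (limma adjusted p = 0.05916, 0.2465, 0.06305 and 0.7733 in Bub1b_R, Chek1_R, Ppm1g_R and Ppp2r1b_R).

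The forms of complex IV subunits found in most tissues had a few calls. Cox4i1 fell by 0.17 and Cox6a1 by 0.22 in the arrays labelled Chek1_R (limma adjusted p = 0.0497 and 0.00294), and neither passed in another clone. The call of Cox4i1 ended without 1 or more of the arrays. Cox6b1, Cox7a2 and Cox5a passed on Dox withdrawal in no clone. Cox5b fell by 0.17 in Chek1_R, a call that also ended without 1 or more of the arrays. In Ctrl_R the changes of Cox4i1, Cox6a1 and Cox5b were 0.04, 0.05 and −0.01. Cox7b was the 1 member past 1.5-fold in Ctrl_R, where it rose by 0.64 (SE 0.16, limma adjusted p = 0.0151) from 8.05, 8.08 and 8.07 with Dox to 8.91, 8.42 and 8.78 without. The rise was 0.53 and 0.60, not called, without replicate 1 or replicate 3 without Dox. Its changes in the rescue clones were −0.08, 0.06, −0.24 and 0.09, and the difference from Ctrl_R passed in Bub1b_R and Ppm1g_R (limma adjusted p = 0.0402 and 0.0122).

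**Figure D2:**
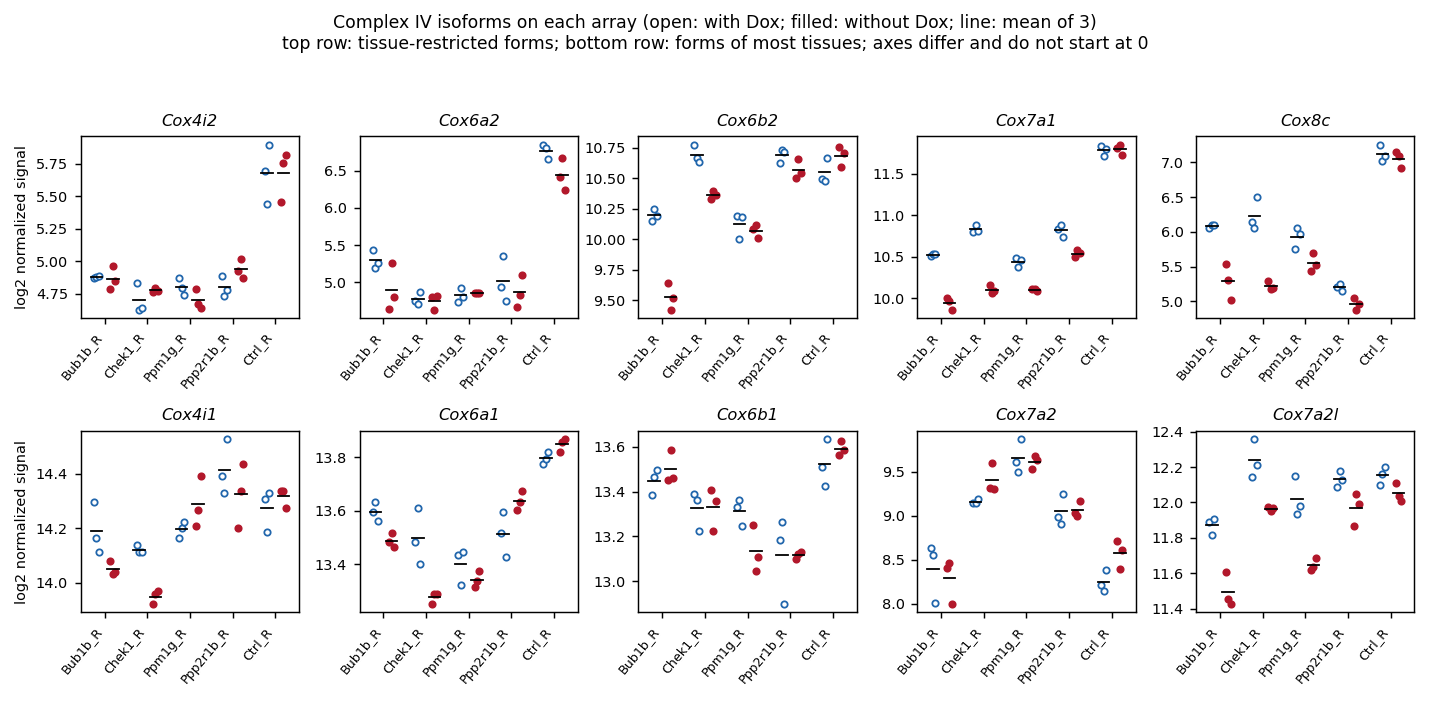
Log2 normalized signal of 10 complex IV genes on each of the 30 arrays (y axes, which differ and do not start at 0), by clone, with Dox (open points) and without (filled points), and the mean of 3 arrays as a line. Cox7a1 is lower without than with Dox in the 4 rescue clones and highest in Ctrl_R, and Cox4i2 and Cox6a2 stand above detection in Ctrl_R alone.

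Complex V, the ATP synthase, had Atp5b, the catalytic beta subunit, falling in Ppm1g_R by 0.32 (SE 0.09, limma adjusted p = 0.00862), from 15.24, 15.27 and 15.42 with Dox to 15.21, 14.71 and 15.04 without. Replicate 2 without Dox was the lowest of all 30 arrays, the fall was 0.19 without it and 0.27 without replicate 3 with Dox, neither called, and the changes in the other 3 rescue clones were −0.01, 0.10 and −0.09, and 0.06 in Ctrl_R. Atp5c1 and Atp5s fell in Ppm1g_R too, by 0.16 and 0.23. Atp5o, in the stalk that holds the catalytic head, fell by 0.25 in Bub1b_R (limma adjusted p = 0.0234) and had 0.06 in Ctrl_R. The c-ring genes Atp5g2 and Atp5g3 went opposite ways in the arrays labelled Chek1_R, where Atp5g2 fell by 0.30 (limma adjusted p = 0.00536) and Atp5g3 rose by 0.31 (limma adjusted p = 0.00446). Atp5g3 also had 0.21 in Bub1b_R, 0.21 in Ppm1g_R and 0.19 in Ctrl_R, none called, and its change in Chek1_R was not shown to differ from that in Ctrl_R (a difference of 0.13, limma adjusted p = 0.519). Atp5g2 had 0.04 in Ctrl_R. Atp5a1, the alpha subunit, passed in no clone, and Atp5j2 rose by 0.21 in Ctrl_R (limma adjusted p = 0.0341). The calls of Atp5c1, Atp5s, Atp5o and Atp5j2 each ended without 1 or more of the arrays of the clone, and those of Atp5g2 and Atp5g3 held without each.

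Relative to Ctrl_R, the change on Dox withdrawal was lower for 4 members in Bub1b_R (7.07% of all genes), 6 in Chek1_R (10.8%), 5 in Ppm1g_R (6.5%) and 3 in Ppp2r1b_R (4.94%), and higher for 0 in each, where 1, 1, 0 and 0 were higher at an unadjusted p under 0.05. The lower members were 5.56%, 8.33%, 6.94% and 4.17% of the 72. Cox7a1 was in all 4 lists. The others were Cox6b2, Cox8c and Cox7b in Bub1b_R, Cox8c, Cox6b2, Atp5g2, Ndufa7 and Cox6a1 in Chek1_R, Cox7b, Atp5b, Atp5s and Atp5c1 in Ppm1g_R, and Cox4nb and Atp5l in Ppp2r1b_R. Without each array in turn, 3, 3, 2 and 0 of these calls held. They were those of Cox7a1, Cox6b2 and Cox8c in Bub1b_R and in Chek1_R, and of Cox7a1 and Cox7b in Ppm1g_R. Under every alternative but a limit of size, Cox7a1 alone held in Bub1b_R, Cox7a1 and Cox8c in Chek1_R, and Cox7a1 and Cox7b in Ppm1g_R. The second Cox6b2 probe had a lower value in Ctrl_R than in Bub1b_R or Chek1_R, so the calls of Cox6b2 rest on its brightest probe. The median differences over the 72 members were −0.15, −0.08, −0.13 and −0.17, beside −0.02 to −0.00 over all genes. Scaling to one median gave −0.10, −0.01, −0.29 and −0.16, beside 0.03, 0.04, −0.09 and −0.01 over all genes. The F-test called 9 of the 72 members (12.5%), against 33.2% of all genes tested. These 4 comparisons share the 6 Ctrl_R arrays. Ndufs8, Ndufv1, Ndufa6, Uqcrc1 and Cox7a2l were in none of the lists, so their falls were not shown to differ from the change in Ctrl_R.

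**Figure D3:**
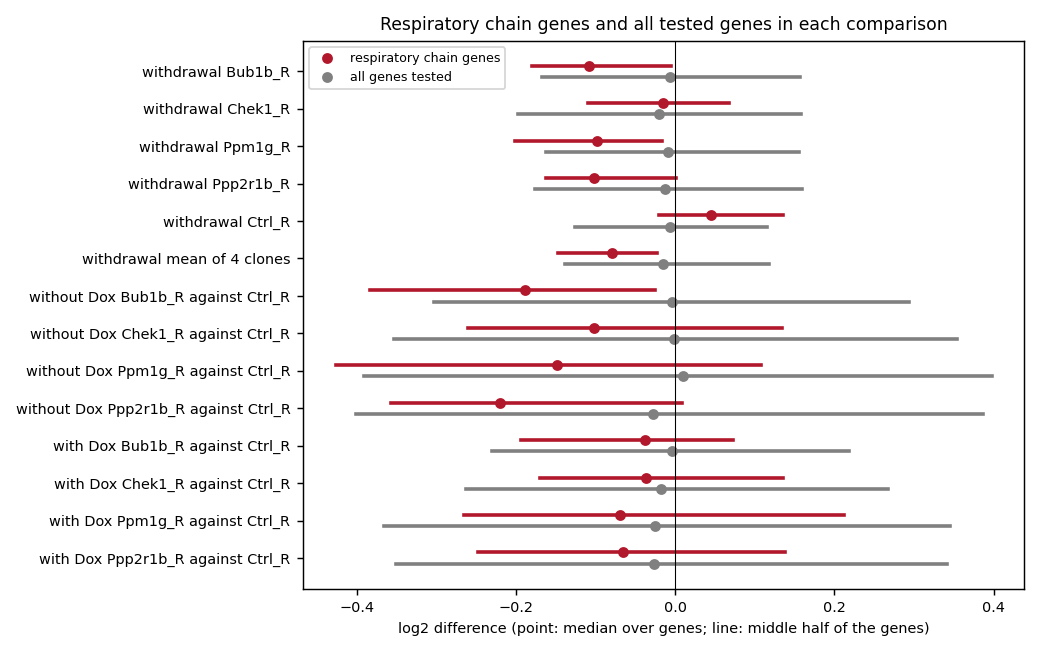
Median log2 difference (points) and the span from the lower to the upper quartile (lines) over the 72 respiratory chain genes and over all 11177 tested genes, for each comparison named on the y axis. The members' medians lie at −0.08 in the mean of 4 clones and at 0.04 in Ctrl_R on Dox withdrawal. Those of Chek1_R on withdrawal and of Bub1b_R with Dox turned positive when arrays were scaled to one median. The medians of all genes also did, at 0.05 and 0.08.

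Without Dox, each rescue clone was also set against Ctrl_R without Dox, the state that the design means to be depleted. In Bub1b_R 37 members were lower and 3 higher (28.1% and 27% of all genes), a comparison within 1 set by signal level, but scaling to one median gave 17 lower and 15 higher. In Chek1_R 29 were lower and 14 higher (32.2% and 29.7%), in Ppm1g_R 36 and 14 (34.1% and 31.9%) and in Ppp2r1b_R 42 and 9 (35.2% and 31%). As shares of the 72 members, 51.4%, 40.3%, 50% and 58.3% were lower in Bub1b_R, Chek1_R, Ppm1g_R and Ppp2r1b_R. Higher were 4.17%, 19.4%, 19.4% and 12.5%. Past 1.5-fold were 12, 11, 15 and 11 members, against 23.9%, 29%, 33.5% and 33.1% of all genes. The medians were −0.19, −0.10, −0.15 and −0.22, beside −0.03 to 0.01 over all genes, and scaling to one median gave −0.00, −0.07, −0.32 and −0.65, beside 0.11, 0.08, 0.01 and −0.18 over all genes.

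Called lower than in Ctrl_R in all 4 rescue clones were 16 members: Ndufa6, Ndufa7, Ndufa12, Ndufb8 and Ndufs8 of complex I, Sdhc, Uqcrc1 and Uqcrc2, Cox4i2, Cox6a1, Cox6a2, Cox7a1 and Cox8c of complex IV, and Atp5g2, Atp5o and Atp5s of complex V. Cox4i2 and Cox6a2 passed the detection filter through the Ctrl_R arrays alone, so their place in this list was fixed by the filter. The share of all tested genes called lower in all 4 clones was not counted, and the 4 comparisons share the Ctrl_R arrays without Dox. The 16 therefore cannot be read as a trait of these genes. With arrays scaled to one median, Uqcrc1 and Uqcrc2 stood at 0.03 and 0.05 in Bub1b_R. Cox7a1 was 3.60-fold lower in Bub1b_R, 3.23-fold in Chek1_R, 3.23-fold in Ppm1g_R and 2.39-fold in Ppp2r1b_R, or −1.85, −1.69, −1.69 and −1.26 on the log2 scale (SE 0.06 each, limma adjusted p of 2.31e-15 or less). Cox8c was at least 2.81-fold and 2.71-fold lower in Chek1_R and Ppp2r1b_R, and in Bub1b_R and Ppm1g_R, where 1 of 3 arrays without Dox detected it, the limma adjusted p of its lower level was 3.76e-12 and 5.83e-11. Cox6a1, the form of subunit 6a found in most tissues, had differences of −0.36, −0.57, −0.51 and −0.21 (SE 0.05 each). Cox4i1 and Cox7a2, also forms found in most tissues, did not share this order. Cox4i1 had −0.27, −0.37, −0.03 and 0.01, of which those in Bub1b_R and Chek1_R passed the test, and Cox7a2 had −0.29, 0.83, 1.04 and 0.49.

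Cox6a2, the heart and muscle form of subunit 6a, was detected on all 6 Ctrl_R arrays, at 6.85, 6.80 and 6.66 with Dox and 6.41, 6.67 and 6.24 without, and on none of the 24 arrays of the rescue clones. Without Dox it was at least 2.01-fold, 1.84-fold, 1.74-fold and 1.78-fold lower in Bub1b_R, Chek1_R, Ppm1g_R and Ppp2r1b_R. Cox4i2, the lung form of subunit 4, was also detected in Ctrl_R alone, on 5 of 6 arrays at 5.44 to 5.90, and without Dox was at least 1.18-fold, 1.08-fold, 1.02-fold and 1.04-fold lower in the 4 clones, bounds close to no difference. Myh7, Ryr2 and Ckm, defining genes of muscle, were detected on no array. Of the 8 muscle markers, 3 were detected on all 3 Ctrl_R arrays with Dox and 4 without. Their summed raw signal, not normalized across the array sets, was 493 to 777 on the Ctrl_R arrays and 1231 to 3696 on the others. Without Dox against Ctrl_R, of 5 markers past the filter 2, 2, 2 and 1 were higher in Bub1b_R, Chek1_R, Ppm1g_R and Ppp2r1b_R. Lower were 1, 0, 2 and 2, so the markers split. In whole cultures, fewer cells of a type and less RNA per cell cannot be told apart.

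The differences from Ctrl_R were in part there with Dox, when the rescue copy is on. With Dox 14 members were lower and 5 higher in Bub1b_R (21.3% and 21.1% of all genes), 19 and 15 in Chek1_R (26.4% and 24.2%), 26 and 20 in Ppm1g_R (33.6% and 29.2%) and 26 and 15 in Ppp2r1b_R (33.3% and 28.3%). As shares of the 72 members, in the same order, 19.4%, 26.4%, 36.1% and 36.1% were lower. Higher were 6.94%, 20.8%, 27.8% and 20.8%. Scaling to one median gave 4 lower and 18 higher in Bub1b_R and 52 lower and 10 higher in Ppp2r1b_R, where the median of the members became −0.51 and that of all genes −0.18. Cox6a1, Cox7a1, Cox8c, Ndufs8 and Uqcrc2 were called lower in all 4 clones with Dox. So were Cox6a2 and Cox4i2, but both passed the detection filter through the Ctrl_R arrays alone, so the filter fixed their place. For Cox4i2 no lower level could be measured in Ppp2r1b_R, because the limit of detection lay as high as the Ctrl_R signal. Scaling to one median ended the calls of Cox6a1 and Ndufs8 in Bub1b_R. Cox7a1 had differences of −1.26, −0.95, −1.34 and −0.96 with Dox, and Cox6a1 of −0.20, −0.30, −0.39 and −0.28. The medians with Dox were −0.04, −0.04, −0.07 and −0.07, and that of Bub1b_R was 0.09 after scaling to one median, beside 0.08 over all genes.

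A group of 10 members was higher than in Ctrl_R without Dox in 3 clones: Atp5g3, Atp5a1, Cox4nb, Ndufb5, Ndufb9, Ndufb2, Cox7a2, Sdhd, Ndufb4 and Ndufab1. For 8 of them, all but Atp5g3 and Cox4nb, the 3 clones were Chek1_R, Ppm1g_R and Ppp2r1b_R, and the value in Bub1b_R lay below 0. Sdhd was at 9.20, 9.55 and 9.10 in Chek1_R, 9.68, 9.60 and 9.49 in Ppm1g_R and 9.69, 9.33 and 9.74 in Ppp2r1b_R without Dox, but at 7.68, 7.24 and 7.41 in Bub1b_R and 8.47, 8.01 and 8.15 in Ctrl_R. The differences from Ctrl_R were 1.08, 1.38 and 1.38 in the first 3 clones and −0.77 in Bub1b_R. Atp5a1 had 0.78, 1.21, 0.95 and −0.70 in the same order, Ndufb2 had 1.04, 1.04, 1.06 and −0.52, and Ndufb9 had 0.44, 0.53, 0.99 and −1.01.

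The 3 clones in which these 8 genes were higher form 1 of the 2 sets of arrays by signal level. Array set and clone cannot be told apart. Within the other set, Atp5a1, Ndufb5, Ndufb9, Ndufb2, Sdhd and Ndufb4 were called lower in Bub1b_R than in Ctrl_R without Dox. Their differences there were −0.70, −0.79, −1.01, −0.52, −0.77 and −0.69. Members of the group of 10 varied more between replicates than the other 62, with a median SD of 0.199 against 0.0767. They were also dimmer, with a median level of 9.01 against 11.98 on the log2 scale. The share of all tested genes called higher in 3 clones was not counted. Some members outside the group of 10 shared the pattern in part. Atp5h of complex V had differences of −0.27, 0.35, 0.36 and 0.01 without Dox in Bub1b_R, Chek1_R, Ppm1g_R and Ppp2r1b_R, the last not called. With Dox it was called higher in 3 clones. Cox6c, Cox7b and Ndufb10 were higher in Chek1_R, Ppm1g_R and Ppp2r1b_R with Dox. Other subunits of the same enzymes did not share the pattern. Sdhb was lower by 0.34, 0.09, 0.31 and 0.45 in Bub1b_R, Chek1_R, Ppm1g_R and Ppp2r1b_R than in Ctrl_R without Dox (the value in Chek1_R not called), and Atp5b had 0.00, −0.03, −0.30 and −0.42. Cox4nb, which is no subunit, was highest in Bub1b_R, at 1.01 above Ctrl_R without Dox and 1.08 with Dox, and was 0.60 above it in Ppm1g_R without Dox. It fell in Ppp2r1b_R on Dox withdrawal by 0.30 (limma adjusted p = 0.0266), a call that ended without any 1 of 4 arrays of that clone.

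**Figure D4:**
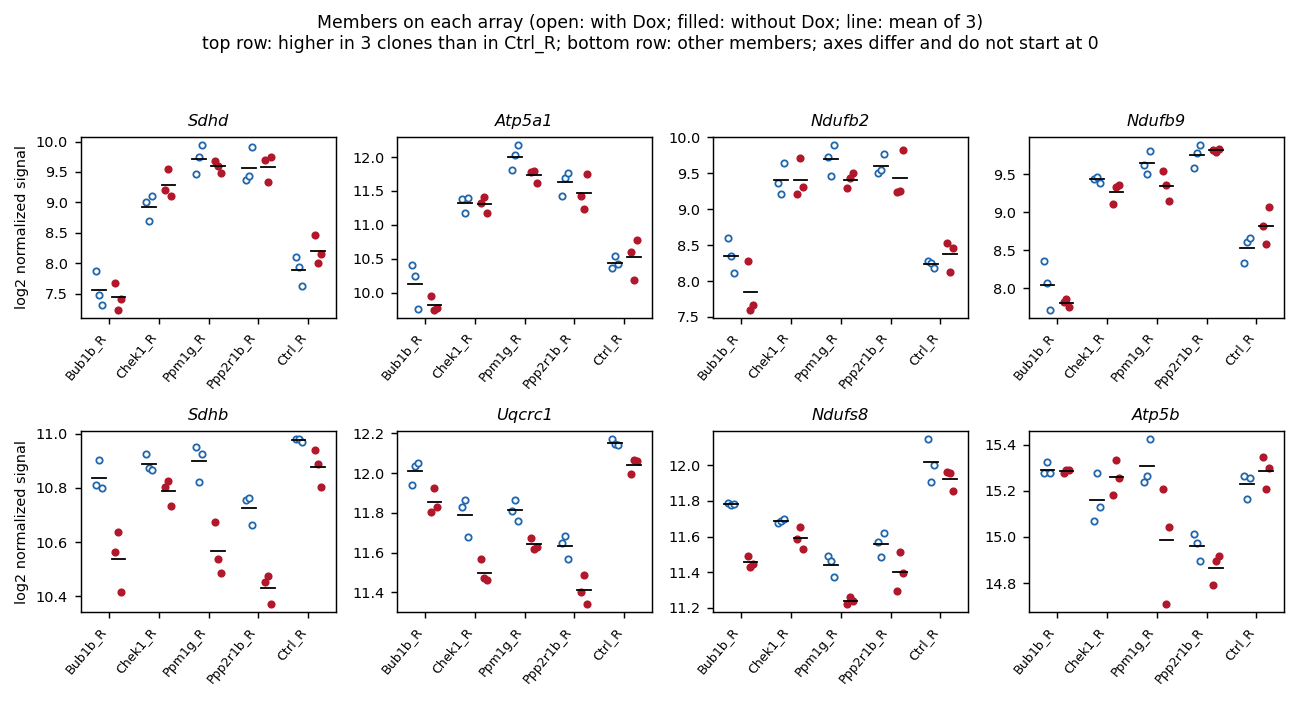
Log2 normalized signal of 8 members on each of the 30 arrays (y axes, which differ and do not start at 0), by clone, with Dox (open points) and without (filled points), and the mean of 3 arrays as a line. Sdhd, Atp5a1, Ndufb2 and Ndufb9 (top) are higher in Chek1_R, Ppm1g_R and Ppp2r1b_R than in Bub1b_R and Ctrl_R, while Sdhb, Uqcrc1, Ndufs8 and Atp5b (bottom) are not.

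Lists of genes around the chain also held more falls than rises in the mean of the 4 rescue clones on Dox withdrawal. Of 17 regulators of mitochondrial biogenesis 8 fell and 2 rose, from Ppargc1b, a coactivator of mitochondrial genes (−0.52), to Nrf1, the factor whose core motif is given above (0.22). Nrf1 had −0.36 in Ctrl_R. Of 16 TCA cycle genes 8 fell and 2 rose, from Idh2 (−0.29) to Dld (0.28). Of 17 assembly factors 9 fell and 1 rose, from Ecsit (−0.42) to Acad9 (0.22), both assembly factors of complex I. Of 11 genes of cytochrome c and coenzyme Q 6 fell and 2 rose, from Coq3 (−0.29) to Cycs, somatic cytochrome c (0.32). In Ctrl_R Coq3 had −0.45 and Cycs 0.42. Of 16 genes of defence against reactive oxygen species 8 fell and 0 rose, with −0.48 for Gpx4, the lipid peroxidase. Hmox1, which degrades haem, had 0.14 in the mean, not called, and fell by 1.14 in Ctrl_R (limma adjusted p = 0.00405). Its change was 1.14 to 1.44 higher than that of Ctrl_R in each of the 4 clones, called in each. The shares for all genes were those given above for the mean of 4 clones.

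Markers of cell state moved beside the falls. All 7 ESC markers were detected on every array, and all 7 fell in the mean of the 4 rescue clones, from −0.20 for Nanog to −0.59 for Utf1, with 1 of 7 falling in Ctrl_R. All 6 markers of primitive streak and mesoderm rose in the mean, T by 2.43, against 1 of 6 in Ctrl_R, which was T (0.75). Their summed raw signal was 145 to 2505 with Dox and 1199 to 6644 without in the rescue clones, and at most 137 in Ctrl_R. Of 10 fibroblast feeder markers 6 passed the filter, of which 5 rose and 1 fell in the mean, with a summed raw signal of 3758 to 9753 with Dox and 2783 to 11517 without in the rescue clones and 2761 to 4076 in Ctrl_R. Col1a2, S100a4, Lum and Postn were detected on no array. Of 5 primitive endoderm markers 3 rose and 0 fell in the mean, with the highest value, 0.55, for Gata6, and 1 rose in Ctrl_R. Of 5 muscle markers past the filter 2 rose and 1 fell in the mean, with 0.94 for Actc1, beside 0.48 in Ctrl_R. Of all tested genes, 22.8% rose and 26.1% fell in the mean, and 4.34% rose and 4.04% fell in Ctrl_R. The muscle markers split and their counts give nothing particular. The summed signals are raw and were not normalized across the array sets. The part of these markers in the falls of respiratory chain genes was not tested.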

How the data were processed

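The study measured mRNA on 30 Illumina Mouse WG-8 v2 arrays. The authors deposited, for each of 25697 probes and each array, a signal intensity that was corrected for background and not normalized, and a detection p-value. The submitters' processing notes name lumi, whose version was not given in the sources used here. On Ppm1g_R without Dox replicate 2 and Bub1b_R without Dox replicate 2, 46 and 14 detection p-values had been turned into dates or times by a spreadsheet, of which 34 were converted back and 26 took that of the probe nearest in intensity on the array.

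Intensities were background-corrected with negative controls inferred from the detection p-values, offset by 16, quantile-normalized over the 30 arrays and put on the log2 scale (neqc, limma 3.58.1 in R 4.3.3). A probe was kept where 3 or more arrays gave it a detection p under 0.05, which held for 15151. A gene was represented by its brightest tested probe. The fit held 1 mean per condition of 3 arrays over all 10 conditions, with 20 residual degrees of freedom, and moderated tests were adjusted by Benjamini-Hochberg over all tested probes. A call is an adjusted p under 0.05. Where a probe was below detection on all 3 arrays of a condition, the fold is a lower bound, set on each of these arrays by the higher of the lowest detected normalized signal and that of the probe itself, and is written "at least". The number of arrays limits the precision, and the correlation of replicate arrays was 0.99 to 0.997.

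The members, the related gene lists and the markers were chosen with earlier results of these data known. Named genes were fixed core subunits and isoforms, the 3 members with the largest rise and the largest fall among those called in each comparison, non-subunits past 1.5-fold, and the extremes of each related list. Genes named outside this rule, among them Ndufs8, Sdhc, Ndufa6, Ndufa7 and the group of 10, were chosen after their values were seen. Alternatives covered background correction, scaling, offset, detection filters, the mean of probes, the arrays fitted, a replicate block, fold limits, the methods' t-test and leaving out each array. Quantiles within each array set and leaving out the arrays labelled Chek1_R were added for calls after seeing the data. The fit was tested on simulated data. Promoters came from RefSeq tables of build GRCm38.p6. The values of 1 member are not reported here singly, and it stays in the counts.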

Additional observations from a re-analysis of the deposited data

Results flagged for a closer look

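For the 8 members below the change on Dox withdrawal differed among the 5 clones by the F-test of that difference (limma, adjusted over all tested probes). The range from the lowest to the highest of the 5 changes is given for each, on the log2 scale, followed by the changes in Bub1b_R, Chek1_R, Ppm1g_R, Ppp2r1b_R and Ctrl_R.

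The fitted range was 0.94 for Cox8c (limma adjusted p = 0.00033), with −0.80, −1.02, −0.38, −0.24 and −0.07. These are not measured sizes, since Cox8c was below detection on all 3 arrays of Chek1_R without Dox, on 2 of 3 in Bub1b_R and Ppm1g_R without Dox and on all 6 arrays of Ppp2r1b_R. It was 0.80 for Cox6b2 by its brightest probe (limma adjusted p = 1.56e-05), with −0.67, −0.33, −0.06, −0.12 and 0.14, while a second probe disagreed. It was 0.74 for Cox7a1 (limma adjusted p = 1.21e-06), whose changes are given above. It was 0.88 for Cox7b (limma adjusted p = 0.038), with −0.08, 0.06, −0.24, 0.09 and 0.64, so that Ctrl_R stood highest. It was 0.34 for Cox6a1 (limma adjusted p = 0.0097), with −0.11, −0.22, −0.06, 0.12 and 0.05.

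Outside complex IV, the range was 0.56 for Cox4nb (limma adjusted p = 0.0184), with 0.13, 0.17, 0.26, −0.30 and 0.20, so that Ppp2r1b_R stood lowest. It was 0.36 for Ndufaf1 (limma adjusted p = 0.0162), with −0.18, 0.11, −0.26, −0.16 and −0.03. It was 0.29 for Atp5j (limma adjusted p = 0.0496), with −0.12, 0.08, −0.04, −0.21 and 0.04. A second Atp5j probe, dimmer than the first, rose in Bub1b_R, Chek1_R and Ppm1g_R by 0.67, 0.76 and 0.39.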

How the results depend on the processing

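Directions of the members called on Dox withdrawal mostly held, and the counts depended on the settings. Counts of called members below stand in the order Bub1b_R, Chek1_R, Ppm1g_R, Ppp2r1b_R and, on withdrawal, Ctrl_R. With at least 1.5-fold they were 2, 3, 0, 0 and 1 on withdrawal, 12, 11, 15 and 11 without Dox against Ctrl_R, 5, 13, 13 and 13 with Dox, and 2, 1 and 0 relative to Ctrl_R in Chek1_R, Ppm1g_R and Ppp2r1b_R. With at least 2-fold they were 0, 1, 0, 0 and 0, then 6, 5, 8 and 5, then 4, 3, 12 and 9, and 0 in each clone relative to Ctrl_R, where limma called 20, 15, 14 and 14 at an unadjusted p under 0.05 with no limit of size. The mean of the clones had 1 past 1.5-fold and 0 past 2-fold. Scaling to one median gave 6, 7, 23, 3 and 0 on withdrawal, 62 with Dox in Ppp2r1b_R, 2 and 0 relative to Ctrl_R in Chek1_R and Ppp2r1b_R, 19 in the mean (18 lower) and 5 by the F-test. Fitting only the arrays compared gave 9, 8, 6, 0 and 0 on withdrawal, 12 in Bub1b_R with Dox, and 2 and 0 relative to Ctrl_R in Ppm1g_R and Ppp2r1b_R. The methods' t-test gave 9, 9, 2, 0 and 0 on withdrawal after Benjamini-Hochberg (25, 21, 17, 17 and 9 at an unadjusted p under 0.05). Without a detection filter Bub1b_R had 9 on withdrawal, and with the stricter filter Ppp2r1b_R had 11. Without the arrays labelled Chek1_R the mean had 27 and the F-test 6.

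Leaving out each array in turn gave 8 to 14, 10 to 16, 7 to 15, 5 to 10 and 0 to 2 on withdrawal, 34 to 40, 36 to 45, 46 to 52 and 47 to 52 without Dox, 16 to 20, 28 to 35, 41 to 47 and 38 to 42 with Dox, 3 to 8, 4 to 7, 2 to 7 and 0 to 5 relative to Ctrl_R, 27 to 33 in the mean and 7 to 12 by the F-test. The lowest withdrawal counts came without Bub1b_R with Dox replicate 1 (8) or 2 (9) or without Dox replicate 3 (8), Chek1_R without Dox replicate 2 (10), and Ppm1g_R with Dox replicate 1 (8) or 2 (7) or without Dox replicate 2 (9) or 3 (8). In Ctrl_R the count was 1 or 0 without any 1 of 5 of its arrays. Relative to Ctrl_R, Bub1b_R had 8 without its replicate 3 with Dox or replicate 1 without. Ppm1g_R had 2 or 3 without its replicate 3 without Dox or Ctrl_R with Dox replicate 2 or without Dox replicate 1. Ppp2r1b_R had 5 without Ppm1g_R without Dox replicate 1, and 1 or 0 without its with Dox replicate 1 or 2 or without Dox replicate 1, or Ctrl_R replicate 1 or 2 in either condition.

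Replicate numbers did not pair the arrays: of 15 pairs 1 correlated above 0.1 (r of −0.08 to 0.13) and 6 arrays correlated best with their own number. With the replicate block the counts on withdrawal were 14, 14, 14, 7 and 2.

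Values that turned direction were few: with arrays scaled to one median, Uqcrc1 (0.032) and Uqcrc2 (0.0465) in Bub1b_R and Atp5g3 (−0.33) and Ndufa4 (−0.24) in Ppm1g_R without Dox against Ctrl_R, and with the mean of all probes, Atp5j in Ppp2r1b_R on withdrawal (0.17) and Cox6b2 in Chek1_R without Dox against Ctrl_R (0.0587). Under median scaling the median of the members turned to 0.06 in Chek1_R on withdrawal and 0.09 in Bub1b_R with Dox, beside 0.05 and 0.08 over all genes. With the mean of probes it turned to 0.03 in Chek1_R with Dox. The cause was not tested. Probes near background, such as Cox8c, Ndufab1 and Cox6a2, limit what can be measured.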
